A study of Mus musculus with 4 samples.

Results

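The 9 genes described here encode parts of the antigen receptor complexes of T and B lymphocytes and molecules that work beside them: Cd3d, Cd3e, Cd3g, Lck, Cd2, Ltb, Cd79a, Cd79b and the immunoglobulin heavy chain entry Igh-VJ558. They are 9 of 47866 names on the array, and they were found through the gene name of the array design or the current symbol of the accession, which gave 15 probes of 60 bases. The RNA came from subcutaneous adipocyte progenitor cells, the stem-like precursors of fat cells, isolated by flow cytometry from male FVB mice aged 4 weeks and lysed directly. The groups were 2 samples of wild-type mice and 2 of Adamts1 transgenic mice; Adamts1 is a secreted metalloprotease that cuts proteoglycans of the extracellular matrix. Each sample was hybridised to 1 single-colour Agilent array. Which promoter drives the transgene and which surface markers were used in the sort is not in the labels, and they do not say whether samples came from separate or pooled mice, so the p-values measure only the spread between these samples.

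T cells recognise antigen through a receptor whose 2 variable chains have no signalling tail of their own. They rely on the CD3 chains, which carry the tyrosine motifs that the kinase Lck phosphorylates when the receptor binds its ligand. B cells use a membrane immunoglobulin in the same way, with Cd79a and Cd79b as the signalling chains. None of these genes is a marker of the adipocyte progenitor. T and B cells are, however, known residents of the vascular and stromal fraction of fat, from which such progenitors are sorted.

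The measured quantity is the log2 of the background-subtracted signal of a probe less the 75th percentile of that array, so a normalised value of 0 is the brightness that 25% of the spots on that array exceeded. Signals are compared between arrays for one probe, not between probes. The 75th percentile was 239 on wild-type array 1 and 333 to 354 on the other 3, and the share of spots well above background was 47.0% there and 55.5% to 57.0% elsewhere. The lowest normalised value that still counted as well above background was thereby -3.60 on wild-type array 1 and -4.98 to -4.93 on the others. Adamts1 itself measured 6.65 and 6.73 on the wild-type arrays and 6.77 and 6.82 on the transgenic arrays, a difference of 0.11 ± 0.09 (log2, SE; adjusted p = 0.573). Both transgenic values were the higher, but the difference did not pass, and whether the probe reads the transgene's transcript is not in the sources used here. Pdgfra, a receptor that marks the progenitors, lay between 5.23 and 5.42 on all arrays, and the 15 progenitor and fibroblast genes examined were all well above background on all 4 arrays. The pan-leukocyte phosphatase Ptprc (CD45) was well above background on 1 wild-type and both transgenic arrays, at -4.52 and -4.56 against -2.72 and -2.54, and rose (log2 difference 1.90 ± 0.26, SE; adjusted p = 0.0437).

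Of the 9 genes, 4 were higher in the transgenic samples at an adjusted p under 0.05 (limma, Benjamini-Hochberg over 24518 features) and none was lower, where 0.967% of all features were called higher and 0.759% lower (1.73% in either direction). The 4 were Cd3d, Lck, Ltb and Igh-VJ558. All 9 were tested, 8 with a positive difference, and the median difference was 1.93 on the log2 scale against -0.02 over all features. A gene was tested if its probe was well above background on both arrays of at least 1 group. Cd3d, Cd3g, Cd79b and Igh-VJ558 passed through the transgenic arrays alone, as 4255 features did, a filter that favours higher values there. Of those 4255 features 1.72% were called, and their median difference was 0.34. Of the 5 genes measured on all 4 arrays, Lck and Ltb were called. The transgenic values lay above both wild-type values for 7 genes, which 24.5% of all features did, below both for Cd3e, which 28.6% did, and among them for Cd79a. In bulk RNA, more cells of a type and more RNA per cell cannot be told apart.

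**Figure D1:**
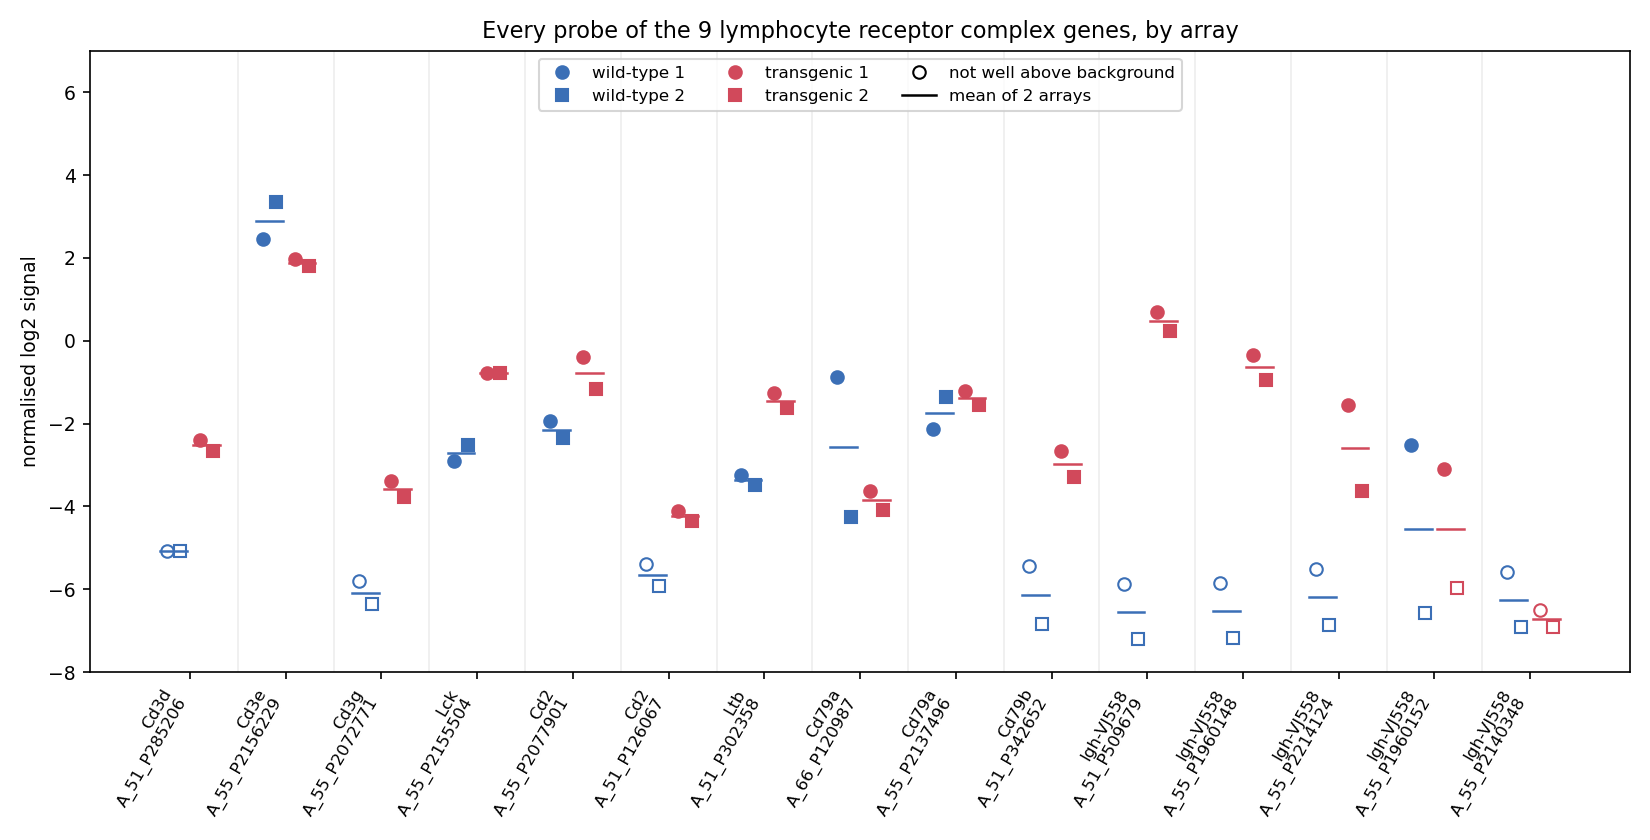
Normalised log2 signal (vertical axis) of each of the 15 probes on the 2 wild-type and the 2 transgenic arrays; open symbols are values not well above background and bars are means of 2 arrays. The transgenic values stand above the wild-type ones for Lck (-0.78 and -0.77 against -2.91 and -2.51) and stand below them for Cd3e (1.97 and 1.80 against 2.45 and 3.34).

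Cd3d encodes the delta chain of CD3. Its probe is one of 3 among the 15 whose genomic span exceeds its own length, and it is printed here with the Cd2 and Cd79a probes of that kind because signal from unspliced RNA or genomic DNA does not offer these 60 bases in 1 run. The Cd3d probe covers chr9:44794171-44794402 on the plus strand of mm9, a span of 232 bases, the Cd2 probe chr3:101083802-101086981 on the minus strand, 3180 bases, and the Cd79a probe chr7:25684357-25684614 on the plus strand, 258 bases. Exon annotation on mm9 was not used here.
Cd3d A_51_P285206: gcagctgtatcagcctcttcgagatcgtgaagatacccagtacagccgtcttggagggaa
Cd2 A_51_P126067: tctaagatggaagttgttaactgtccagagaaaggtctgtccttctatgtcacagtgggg
Cd79a A_66_P120987: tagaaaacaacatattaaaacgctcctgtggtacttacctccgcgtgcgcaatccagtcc

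The Cd3d probe measured -5.08 and -5.09 on the wild-type arrays, not well above background, and -2.40 and -2.66 on the transgenic arrays, where it was. The groups did not overlap, but both wild-type values lay below the background limit, where values have no order. Their closeness to each other is therefore not a measured spread. In processed signal units the values were 7.08 and 9.80 against 67.2 and 55.3. Cd3d rose, with a fitted log2 difference of 2.55 ± 0.28 (SE; 95% interval 1.86 to 3.25; adjusted p = 0.0283). Because the wild-type signal is only a bound, the fold is given as at least 3.34-fold, the mean of the transgenic arrays against, on each wild-type array, the lowest signal well above background or the probe's own if higher. It was 5.30 without wild-type array 1 and 2.10 without wild-type array 2. Every "at least" below is made in this way. Without transgenic array 1 the adjusted p was 0.181 and without transgenic array 2 it was 0.133, with differences of 2.42 and 2.69.

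Cd3g encodes the gamma chain, which pairs with Cd3e in the complex as the delta chain does. Its probe lies at chr9:44777868-44777927 (minus strand, mm9) and measured -5.81 and -6.35 on the wild-type arrays, not well above background, against -3.38 and -3.77 on the transgenic arrays. Both transgenic values were well above background and above both wild-type values. The fitted difference was 2.51 ± 0.39 (log2, SE), at least 1.62-fold higher, and the adjusted p of 0.0528 missed the threshold. The bound was 2.58 without wild-type array 1 and 1.02 without wild-type array 2. Leaving out wild-type array 1 or 2 took it past the threshold (adjusted p = 0.0313 and 0.0213), and it did not pass without either transgenic array (0.369 and 0.260).

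Cd3e, whose epsilon chain is shared by both CD3 dimers, had a difference of the opposite sign. Its probe at chr9:44806828-44806887 (minus strand, mm9) was well above background on all 4 arrays, at 2.45 and 3.34 on the wild-type arrays and 1.97 and 1.80 on the transgenic arrays. It was thus bright on the wild-type arrays, where the Cd3d and Cd3g probes were not well above background. Which RNA it reads there was not tested. The groups did not overlap, and the wild-type arrays differed by more from each other than wild-type array 1 did from either transgenic array. The difference was -1.01 ± 0.29 (log2, SE; 95% interval -1.74 to -0.28), 2.01-fold lower in the transgenic samples, and did not pass over all features (adjusted p = 0.162). Without wild-type array 1 it was -1.45 (adjusted p = 0.0168) and without wild-type array 2 -0.57 (adjusted p = 0.0477), so that the size of the difference moved with the wild-type array kept. The intervals of Cd3d and Cd3e do not meet, although the difference between the genes was itself not tested. Cd3e has 1 probe on the array, and it is one of 4 of the 15 that hold the letters AATAAA, the common polyadenylation signal, as 10.1% of all 55681 probes do.

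Cd3d and Cd3g lie head to head, with starts 1355 bases apart on opposite strands, and Cd3e starts 27.8 kb from Cd3d. The 250 bases before each start are shown because the 2 divergent genes had like differences and the third did not. They are from RefSeq (GRCm38.p6), at chr9:44981536-44981785 on the plus strand for Cd3d, chr9:44980432-44980681 on the minus strand for Cd3g and chr9:45009612-45009861 on the minus strand for Cd3e. Capitals mark CACCTG, an E box of the kind bound by E proteins, and AGGAAG, a core of Ets family sites, on either strand, where they read CAGGTG and CTTCCT; the 2 motifs were chosen after the windows were read.
Cd3d: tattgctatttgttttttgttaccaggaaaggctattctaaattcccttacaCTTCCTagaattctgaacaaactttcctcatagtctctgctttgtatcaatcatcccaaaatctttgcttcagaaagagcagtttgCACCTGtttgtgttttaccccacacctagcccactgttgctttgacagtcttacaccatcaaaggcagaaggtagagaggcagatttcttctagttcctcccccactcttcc
Cd3g: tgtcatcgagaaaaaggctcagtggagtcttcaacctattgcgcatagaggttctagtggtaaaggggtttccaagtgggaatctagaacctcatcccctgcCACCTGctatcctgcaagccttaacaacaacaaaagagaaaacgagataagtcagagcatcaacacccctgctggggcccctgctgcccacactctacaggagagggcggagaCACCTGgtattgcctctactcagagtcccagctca
Cd3e: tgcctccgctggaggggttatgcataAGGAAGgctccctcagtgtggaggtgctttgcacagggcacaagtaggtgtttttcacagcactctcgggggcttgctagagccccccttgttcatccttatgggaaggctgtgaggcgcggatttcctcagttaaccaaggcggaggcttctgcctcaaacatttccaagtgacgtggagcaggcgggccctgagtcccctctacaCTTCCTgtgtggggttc

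The Cd3d window holds 1 of each motif, the Cd3g window 2 of the E box letters and 0 of the Ets letters, and the Cd3e window 0 and 2. Over all members the table has 7 windows of 6 genes, 2 of them for Lck. Of these 7 windows 5 hold CACCTG, against 17.2% of all 32851 windows of this length, and 6 hold AGGAAG, against 29.5%. Both occur in 4 of the 7 and in 5.25% of all windows. Because the motifs were chosen from these windows, the shares cannot test whether the motifs are in excess. The matches are of letters and say nothing of binding.

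Lck, the Src family kinase that phosphorylates the CD3 tails, had the smallest SE of the 9 genes. Its probe at chr4:129225614-129225673 (minus strand, mm9) was well above background on every array and measured -2.91 and -2.51 on the wild-type arrays against -0.78 and -0.77 on the transgenic arrays. The gap between the groups was several times the gap within either. Lck rose by 1.93 ± 0.21 (log2, SE; adjusted p = 0.0283), 3.82-fold with a 95% interval of 2.65 to 5.50. The call was lost without transgenic array 1 (adjusted p = 0.0972) and without transgenic array 2 (0.0910), while the difference stayed at 1.94 and 1.92.

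Cd2, an adhesion receptor of T and NK cells that binds Cd48 in the mouse, had 2 probes. The brighter, at chr3:101079831-101079890 (minus strand, mm9), was well above background on all arrays, at -1.94 and -2.36 on the wild-type arrays and -0.40 and -1.16 on the transgenic arrays. Transgenic array 1 was the highest, and the groups did not overlap. The difference was 1.37 ± 0.31 (log2, SE), 2.59-fold (95% interval 1.5 to 4.45), with an adjusted p of 0.111. The second probe, the spliced one printed above, is spotted 10 times on each array. Its means were -5.39 and -5.93 on the wild-type arrays and -4.12 and -4.36 on the transgenic arrays. On both wild-type arrays 0 of its 10 spots were well above background, whereas 8 of 9 usable spots were on transgenic array 1 and 8 of 10 on transgenic array 2. The spots ranged from -5.71 to -4.73 and from -6.60 to -4.92 on the wild-type arrays, and from -5.02 to -3.79 and from -4.82 to -4.08 on the transgenic arrays, so single spots of the groups overlapped while the array means did not. In the fit over probes its difference was 1.42 ± 0.39 (log2, SE; adjusted p = 0.149), which rests on wild-type values below the background limit, and the bound was at least 1.02-fold. Without wild-type array 1 the bound was 1.62, and without wild-type array 2 or transgenic array 1 there was none.

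Ltb encodes lymphotoxin beta, the membrane anchor of a ligand through which lymphocytes signal to stromal cells. Its probe at chr17:35333097-35333156 (plus strand, mm9) measured -3.24 and -3.48 on the wild-type arrays and -1.26 and -1.63 on the transgenic arrays, and was well above background on all 4. Both transgenic values were above both wild-type values. Ltb rose by 1.91 ± 0.24 (log2, SE; adjusted p = 0.0368), 3.77-fold with a 95% interval of 2.49 to 5.70. Without transgenic array 1 the adjusted p was 0.167 and without transgenic array 2 it was 0.0941. The receptor of this ligand, Ltbr, which stromal cells carry, measured 4.04 and 3.76 against 3.80 and 3.98, a difference of -0.01 ± 0.13 (adjusted p = 0.968).

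The B cell chains Cd79a and Cd79b, which form 1 heterodimer beside the immunoglobulin, gave unlike values. The brighter Cd79a probe, at chr7:25686823-25686882 (plus strand, mm9), was well above background on all arrays at -2.14 and -1.36 on the wild-type arrays and -1.22 and -1.56 on the transgenic arrays. The groups overlapped, and the difference was 0.36 ± 0.30 (log2, SE; adjusted p = 0.560), 1.28-fold with an interval of 0.754 to 2.18. Without wild-type array 1 it was -0.03 (adjusted p = 0.956). The spliced Cd79a probe printed above measured -0.88 on wild-type array 1 but -4.26, -3.62 and -4.09 on the others, so 1 wild-type array stood apart from the remaining 3. Its difference was -1.29 ± 1.07 (log2, SE; adjusted p = 0.549 in the fit over probes), and 0.40 without wild-type array 1.

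The Cd79b probe, at chr11:106172780-106172839 (minus strand, mm9), was well above background on neither wild-type array, at -5.45 and -6.83, and on both transgenic arrays, at -2.66 and -3.29. The signals were 5.46 and 2.94 units against 55.9 and 35.7. The groups did not overlap, and the wild-type arrays differed from each other below the background limit, where values have no order. The distance between the groups is therefore known only as a bound. The fitted difference was 3.16 ± 0.56 (log2, SE; adjusted p = 0.0687), at least 2.45-fold higher, a bound of 3.89 without wild-type array 1 and 1.54 without wild-type array 2. Leaving out wild-type array 1 or 2 took it past the threshold (adjusted p = 0.0238 and 0.0270), and it did not pass without transgenic array 1 (0.293) or 2 (0.169).

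Igh-VJ558 is the array's name for 5 probes of the immunoglobulin heavy chain locus on the minus strand of chromosome 12. The heavy chain is the part of the B cell receptor and of secreted antibody that carries the class-defining constant region. The probes are printed in the order of their mm9 coordinates because they lie at different places and gave different signals: chr12:114496985-114497044, chr12:114497090-114497149, chr12:114498348-114498407, chr12:114507471-114507530 and chr12:116610609-116610667.
Igh-VJ558 A_51_P509679: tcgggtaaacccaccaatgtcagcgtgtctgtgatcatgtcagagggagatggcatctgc
Igh-VJ558 A_55_P1960148: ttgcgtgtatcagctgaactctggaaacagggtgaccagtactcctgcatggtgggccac
Igh-VJ558 A_55_P2214124: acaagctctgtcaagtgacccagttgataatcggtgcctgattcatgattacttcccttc
Igh-VJ558 A_55_P1960152: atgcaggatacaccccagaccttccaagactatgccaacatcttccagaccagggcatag
Igh-VJ558 A_55_P2140348: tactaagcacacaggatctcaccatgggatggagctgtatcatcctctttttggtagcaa

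The first 3 lie within 1.4 kb of each other, the fourth 9063 bases on, and the last 2103078 bases further, on the side of the variable segments. The probe that the array describes as the constant region of IgG2c is at chr12:114525600-114525659 and that of IgM at chr12:114659630-114659689, so the first 4 Igh-VJ558 probes lie beyond both constant regions, away from the last. Probes described as heavy chain variable regions start at position 114816899, and the last Igh-VJ558 probe lies between 2 described as J558 family, at 116446433 and 116699334. The array describes the first 2 as 1 predicted gene and the fourth as another. The name of a variable gene family thus stands on probes far from the variable segments, and which constant region the first 3 belong to was not settled from the files.

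A_51_P509679, which stands for the gene in the fit, measured -5.88 and -7.21 on the wild-type arrays and 0.69 and 0.24 on the transgenic arrays. Its processed signals were 4.06 and 2.25 units against 573 and 414. The wild-type values were not well above background, so the distance between the groups is known only as a bound. That bound, given next, was the largest among the probes of the 9 genes. Igh-VJ558 rose, with a fitted log2 difference of 7.02 ± 0.49 (SE; adjusted p = 0.0162), given as at least 26.6-fold higher, and at least 16.8-fold to 42.3-fold with 1 array left out. On both wild-type arrays this probe and the next 2 carried surrogate values, which the scanner software writes where a spot does not exceed background, so the fitted difference depends on them and the bound does not.

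A_55_P1960148 measured -5.86 and -7.19 on the wild-type arrays and -0.34 and -0.94 on the transgenic arrays. It was called as well in the fit over probes, at least 12.4-fold higher (fitted difference 5.88 ± 0.51; adjusted p = 0.0240), one of 5 of the 15 probes called higher where 0.977% of all probes were. Its bound ran from 7.77 (without wild-type array 2) to 19.6 (without wild-type array 1). A_55_P2214124 measured -5.51 and -6.86 against -1.56 and -3.62, at least 3.20-fold higher and not called (fitted difference 3.60 ± 0.81; adjusted p = 0.110), with a bound of 1.57 without transgenic array 1, 6.53 without transgenic array 2, 5.08 without wild-type array 1 and 2.01 without wild-type array 2. In all 3 the transgenic arrays were well above background and the wild-type arrays were not, and transgenic array 1 was the brighter.

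The last 2 probes behaved otherwise. A_55_P1960152 was well above background on wild-type array 1 (-2.53) and transgenic array 1 (-3.11) and not on wild-type array 2 (-6.58) or transgenic array 2 (-5.98), so it was bright on 1 array of each group and was not tested. A_55_P2140348, the only one among the variable segments, was well above background on no array (-5.59, -6.92, -6.51 and -6.92). The call for Igh-VJ558 was therefore that of 2 neighbouring probes. With the mean over the probes of a gene it was not called (3.21; adjusted p = 0.127). Without transgenic array 2 the fourth probe became the brightest and stood for the gene, with a difference of 1.44 (adjusted p = 0.873), while A_51_P509679 itself still differed by 7.24.

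**Figure D2:**
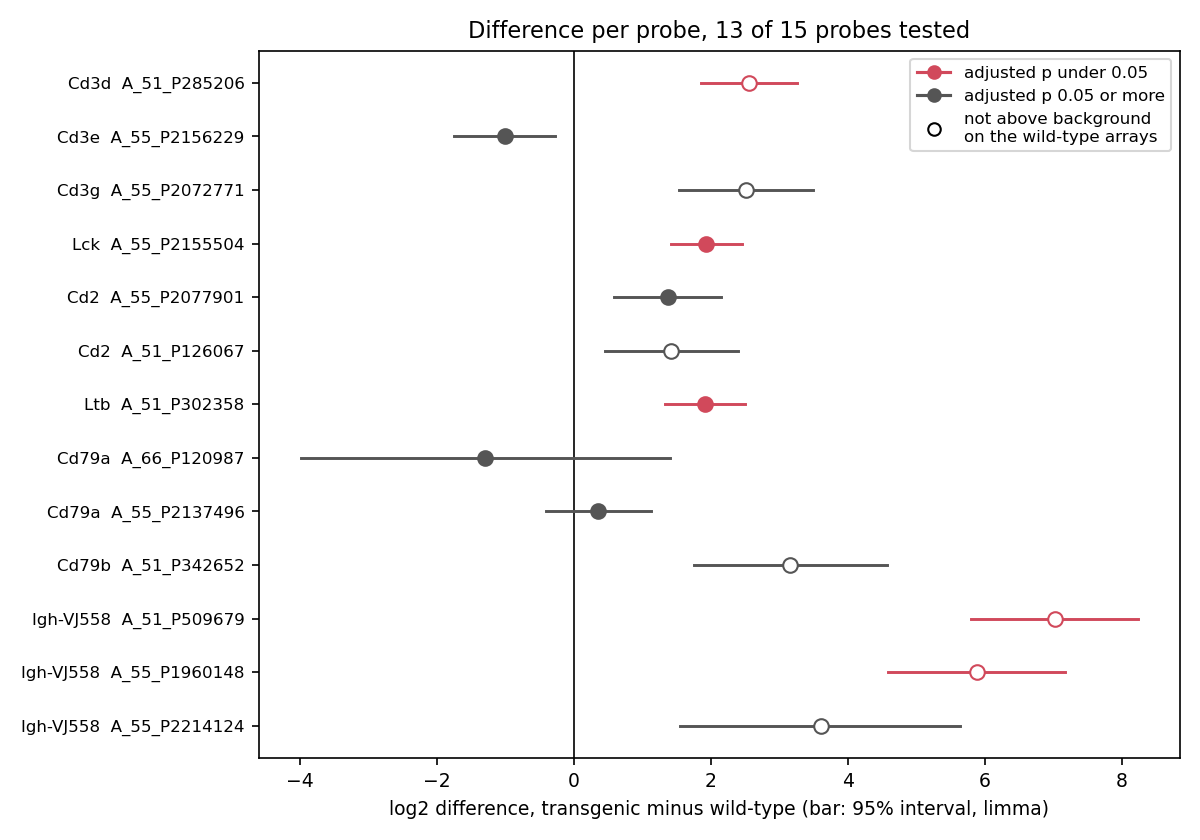
Log2 difference, transgenic minus wild-type, of the 13 tested probes of the 9 genes (horizontal axis), with bars for the 95% interval of the limma fit over probes; red marks an adjusted p under 0.05 and open symbols probes not above background on the wild-type arrays. The 5 red probes are those of Cd3d, Lck, Ltb and 2 of Igh-VJ558; the Cd3e interval lies below 0 and both Cd79a intervals include 0.

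The sizes of the dim genes depended on how background was removed, and the calls on the variance model. With normexp correction of the raw spot signal (offset 50) and the 75th percentile shift, Lck (1.09; adjusted p = 0.0153) and Igh-VJ558 (3.10; adjusted p = 0.00494) were called, and Cd3d (0.49; 0.253), Ltb (0.88; 0.0668), Cd3g (0.29; 0.472) and Cd79b (0.34; 0.471) were not. With normexp correction and quantile normalisation the called genes were Cd3d (0.69; 0.0467), Lck (1.2; 0.0353), Ltb (1.02; 0.0385) and Igh-VJ558 (3.24; 0.0168). When the variance model had no trend with intensity, no feature of the array was called, although 8 of the 9 genes and 4124 features had an unadjusted p under 0.05.

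The partners of these receptors were examined from lists made up from general knowledge, with earlier results of these data known. For a list, normexp correction means that with the 75th percentile shift. Leaving out either wild-type array raised the calls over all features too, and most of those calls were lower in the transgenic samples. Leaving out either transgenic array reduced them. A list's count with 1 array left out is therefore not particular to that list. Among 24 listed T cell receptor partners and signalling genes, 20 were found on the array by name. The receptor chains Trbc2, Trac, Trdc and Trgc1 were not found by name, and constant region probes picked by description are given below. Of the 20 genes, 9 were well above background on no array, and 11 were tested. Of these 11, 1 rose and none fell, with a median difference of 1.01 and 10 of 11 positive. The 1 that rose was Zap70, the kinase recruited to phosphorylated CD3 tails, at -4.01 and -3.49 against -1.76 and -1.61 (log2 difference 2.06 ± 0.27, SE; adjusted p = 0.0407), and it was well above background on 1 of the wild-type arrays. The next by p-value included Cd5, an inhibitory receptor, at -3.25 and -3.04 against -1.79 and -1.88 (1.31 ± 0.21; adjusted p = 0.0584), and the adaptor Skap1 (at least 1.72-fold; 0.0630), which was above background on neither wild-type array. The zeta chain Cd247, which signals beside CD3, and the coreceptor chains Cd8a and Cd8b1 were well above background on no array, whereas the coreceptor Cd4 measured 2.02 and 1.83 against 1.97 and 1.95 (0.03 ± 0.10; adjusted p = 0.896). The Zap70 call was lost when either transgenic array was left out and with normexp correction. Without wild-type array 1 the list had 4 calls and without wild-type array 2 it had 6.

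Of 15 T cell lineage and homing genes 9 were tested and none was called in either direction, with a median of 1.70 and 7 positive. S1pr1, the receptor by which lymphocytes leave lymph nodes, measured -5.38 and -3.93 against -2.06 and -2.13 (2.56 ± 0.51; adjusted p = 0.0840). Bcl11b, a T lineage factor, measured -5.68 and -6.04 against -4.15 and -4.17 (at least 1.08-fold; adjusted p = 0.0967). Lef1 was the next (2.12 ± 0.48; adjusted p = 0.109). All 3 were well above background on both transgenic arrays and on 1 or none of the wild-type arrays. Without wild-type array 1 there were 3 calls in this list and without wild-type array 2 there were 5. Of 16 NK and cytotoxic genes 11 were well above background on no array and none of the 5 tested was called, Gzmk having the smallest p at 0.98 and 1.13 against 1.59 and 1.64 (0.56 ± 0.11; adjusted p = 0.0776); 1 and 2 of them were called without wild-type array 1 and 2.

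Of 23 B cell receptor partners 8 were tested and 10 were well above background on no array, among them Pax5, the transcription factor that defines the lineage. Plcg2, a phospholipase used by B cells and by myeloid cells, was the 1 that rose, at -4.13 and -4.33 against -1.82 and -1.94 (2.35 ± 0.24; adjusted p = 0.0270), and none fell. The Plcg2 probe was well above background on 1 wild-type array, and the rise was at least 4.24-fold. The adaptor Blnk, which links the receptor to that enzyme, measured -3.35 and -4.15 against -2.12 and -2.11 (1.64 ± 0.33; adjusted p = 0.0870). The kinase Syk, which binds the phosphorylated Cd79 tails, measured 2.63 and 2.12 against 1.71 and 1.91 (-0.57 ± 0.19; adjusted p = 0.201). The median of the 8 was 0.07. Plcg2 was not called when either transgenic array was left out or with normexp correction, and the list had 2 calls without wild-type array 1 and 3 without wild-type array 2.

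Of 17 listed immunoglobulin and plasma cell genes 7 were tested and none was called. No heavy or light chain gene was among the 7. Ighm, Ighd, Igha and Iglc1 were not found by name, and the chain entries that were found were well above background on no array. Probes described as constant regions of these chains are given further below. Jchain, which joins the units of IgM and IgA, measured -5.87 and -7.21 against -3.11 and -3.23, at least 2.14-fold higher (3.37 ± 0.53; adjusted p = 0.0547). Sdc1 measured 0.45 and 0.35 against 1.25 and 1.09 (0.77 ± 0.12; adjusted p = 0.0512). The wild-type values of Jchain were not well above background, and Sdc1 was measured on all 4 arrays. Irf4 (-0.71 ± 0.18; adjusted p = 0.142) and Derl3 (-1.36 ± 0.36; adjusted p = 0.145) had differences of the opposite sign. Normexp correction gave 1 call in this list, and leaving out wild-type array 1 or 2 gave 3 and 4.

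For the ligands and targets around Ltb and Cd2, 14 of 15 genes found by name were tested and none was called, with a median of 0.06 and 7 of each sign. Vcam1, an adhesion molecule of activated stroma, measured 3.33 and 3.19 against 3.90 and 3.83 (0.60 ± 0.09; adjusted p = 0.0517). Tnfsf14, another ligand of Ltbr, measured -2.52 and -2.31 against -3.55 and -3.77 (-1.25 ± 0.24; adjusted p = 0.0821). Cd48, the ligand of Cd2, measured -3.13 and -2.90 against -2.12 and -1.94 (0.98 ± 0.22; adjusted p = 0.107). Tnf, which neighbours Ltb, measured -3.74 and -3.64 against -2.92 and -2.94 (0.76 ± 0.24; adjusted p = 0.190), and Lta, the soluble partner of Ltb, was well above background on no array. This list had 1 call with normexp correction or without wild-type array 1, and 3 without wild-type array 2.

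Lists of leukocyte genes held more calls. Of 12 tested pan-leukocyte genes 6 rose and none fell, with a median of 1.93. All 15 genes of that list were summed, in units of each array's 75th percentile. The sum was 5.28 and 4.61 on the wild-type arrays against 8 and 7.68 on the transgenic arrays. The brightest genes of a list set such a sum. Coro1a, an actin regulator of leukocytes, measured -3.02 and -2.80 against -0.31 and -0.28 (2.61 ± 0.18; adjusted p = 0.0162). Hcls1 (2.09 ± 0.19; adjusted p = 0.0246), Laptm5 (at least 2.44-fold; 0.0281) and Rac2 (1.96 ± 0.22; 0.0292) rose too, Laptm5 being above background on neither wild-type array and Rac2 on 1. Of 19 tested macrophage and myeloid genes 10 rose and none fell, with a median of 2.02. The sum over all 21 of that list was 59.5 and 58.4 on the wild-type arrays against 69.4 and 67.2 on the transgenic arrays. Cd74, the invariant chain of class II molecules, which B cells also express, measured -2.01 and -2.21 against 1.09 and 1.10 (3.21 ± 0.14; adjusted p = 0.0128), and Pf4 (3.03 ± 0.20; 0.0162), C1qc (3.10 ± 0.20; 0.0162) and Mrc1 (2.97 ± 0.22; 0.0183) followed. Fcgr1 and Cd163 were well above background on no array. With either transgenic array left out the macrophage calls came to 3 and the pan-leukocyte calls to 1, and with normexp correction the pan-leukocyte calls came to 2.

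The summed level of the 20 T cell receptor partners was 10.7 and 9.26 on the wild-type arrays and 9.75 and 9.76 on the transgenic arrays, that of the 15 T lineage genes 1.42 and 0.99 against 2.01 and 1.94, and that of the 23 B cell receptor partners 145 and 124 against 142 and 134, sums that the brightest genes of each list set. The summed level of the progenitor and fibroblast list was 4730 and 3880 on the wild-type arrays against 3290 and 3260, again set by its brightest genes. The wild-type arrays differed by more from each other than wild-type array 2 did from either transgenic array. Of its differences 11 were negative and 4 positive, those of Thy1 (0.61), Pdgfrb (0.4), Lum (0.36) and Pdgfra (0.08), with a median of -0.33. Its calls went the other way from those of the leukocyte lists: of 15 genes 3 fell and none rose. The 3 were Cd24a (-1.58 ± 0.11; adjusted p = 0.0162), Fbln1 (-0.85 ± 0.08; 0.0270) and Pi16 (-1.16 ± 0.15; 0.0384). The list had 5 calls with normexp correction or without wild-type array 1, 11 without wild-type array 2, and 1 when either transgenic array was left out. The part of leukocyte or progenitor numbers in the differences of the 9 genes was not tested.

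**Figure D3:**
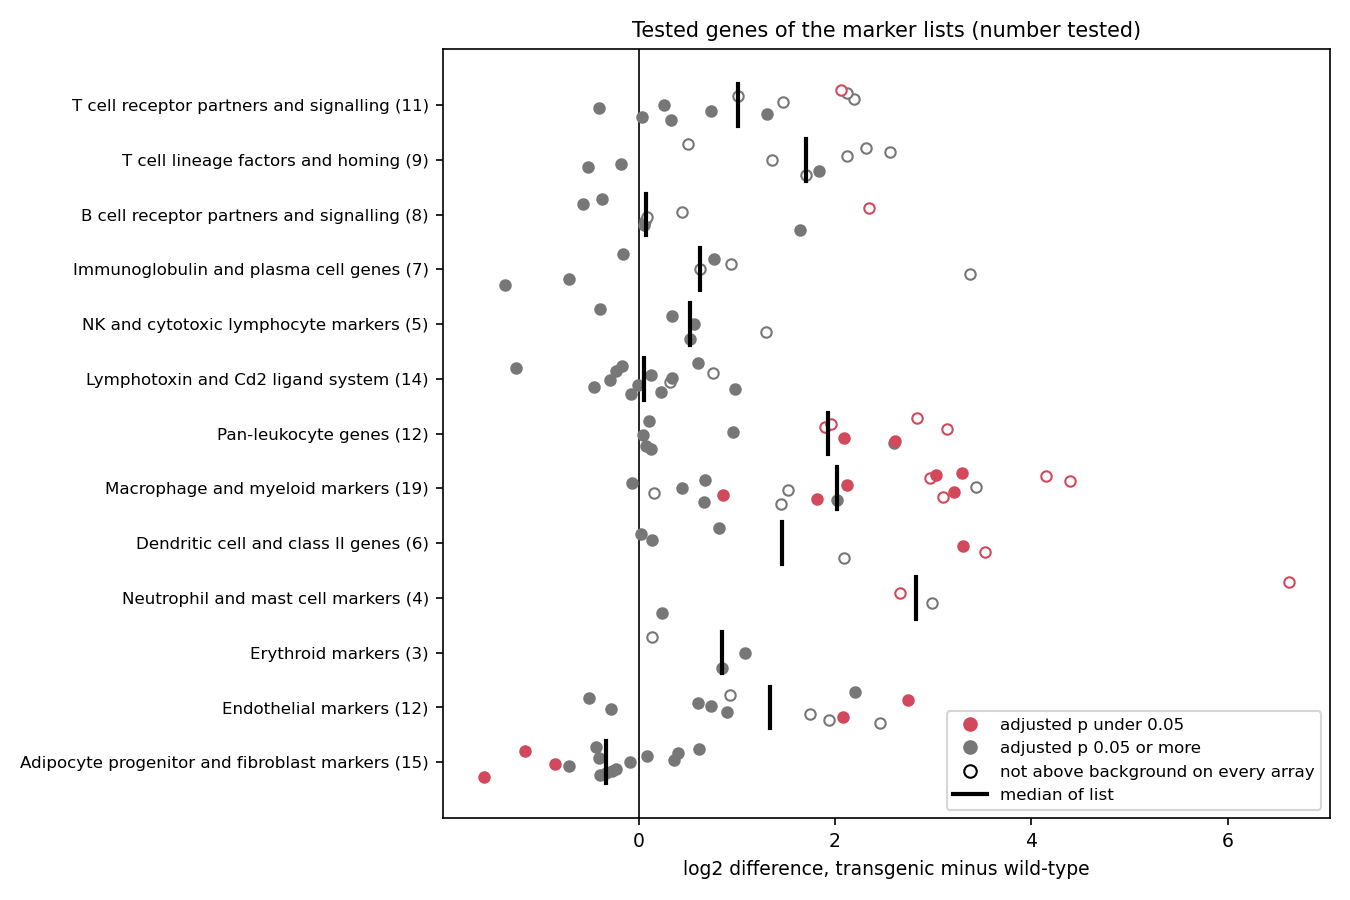
Log2 difference, transgenic minus wild-type (horizontal axis), of each tested gene of 13 marker lists, with the number tested in brackets and a black bar at the list's median; red marks an adjusted p under 0.05 and open symbols genes not above background on every array. The macrophage list (median 2.02) and the pan-leukocyte list (median 1.93) hold 10 and 6 called genes, and the T and B cell receptor partner lists 1 each.

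Of 6 dendritic cell and class II genes tested 2 rose, H2-Aa (3.53 ± 0.19; adjusted p = 0.0128) and H2-Ab1 (3.30 ± 0.31; 0.0254). Of 4 neutrophil and mast cell genes S100a8 (2.66 ± 0.29; 0.0283) and S100a9 (at least 19.5-fold; 0.0270) rose. S100a9 was above background on neither wild-type array. H2-Aa and S100a8 were so on 1 wild-type array each, and were at least 10.1-fold and 4.84-fold higher. None of 3 erythroid genes was called. Of 12 endothelial genes Ptprb (2.74 ± 0.25; adjusted p = 0.0246) and Egfl7 (2.08 ± 0.24; 0.0322) rose, and Pecam1 did not pass (0.74 ± 0.18; 0.128). Without transgenic array 1 and 2 the endothelial calls came to 0 and 1, and without wild-type array 1 and 2 to 7 and 9. Without wild-type array 2 there were 4 class II and dendritic calls, and the neutrophil and mast cell list had 1 call when either transgenic array was left out and with normexp correction.

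Over the 4 arrays, the genes whose centred profile lay nearest to each of the 9 were found by the root mean square difference on the log2 scale. With only 4 arrays, many features lie near any profile, and nearness is a description. For Cd3d they were Cd209f (0.0814), Ccl24 (0.0852) and Fmod (0.0914), the first 2 known from macrophages. For Cd3g they were Clec4d, Arhgap25 and Fyb, at 0.0855 to 0.138. For Ltb they were the complement gene C1qb (0.0629), Prlr and Paqr9. The profile of Lck lay nearest to Gucy1a1 (0.0638), Prkar2b and Notch3, and that of Cd2 to the granzyme Gzma (0.0573), Rflnb and Rnf148. For Cd79b they included Ms4a4a (0.105) and Cd86. The wild-type values of both, and those of Ccl24, Cd3d, Cd3g, Cd79b and Igh-VJ558, lay below the background limits, where they have no order. Igh-VJ558 had no close match: S100a9 was nearest at 0.702, ahead of Syt10 and Ccl4. Cd3e lay nearest to Foxd2 (0.128), Adra2c and Ces2e, and Cd79a to Trhde (0.0273), Rhox8 and Cpt1b, none of them named on the leukocyte lists.

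**Figure D4:**
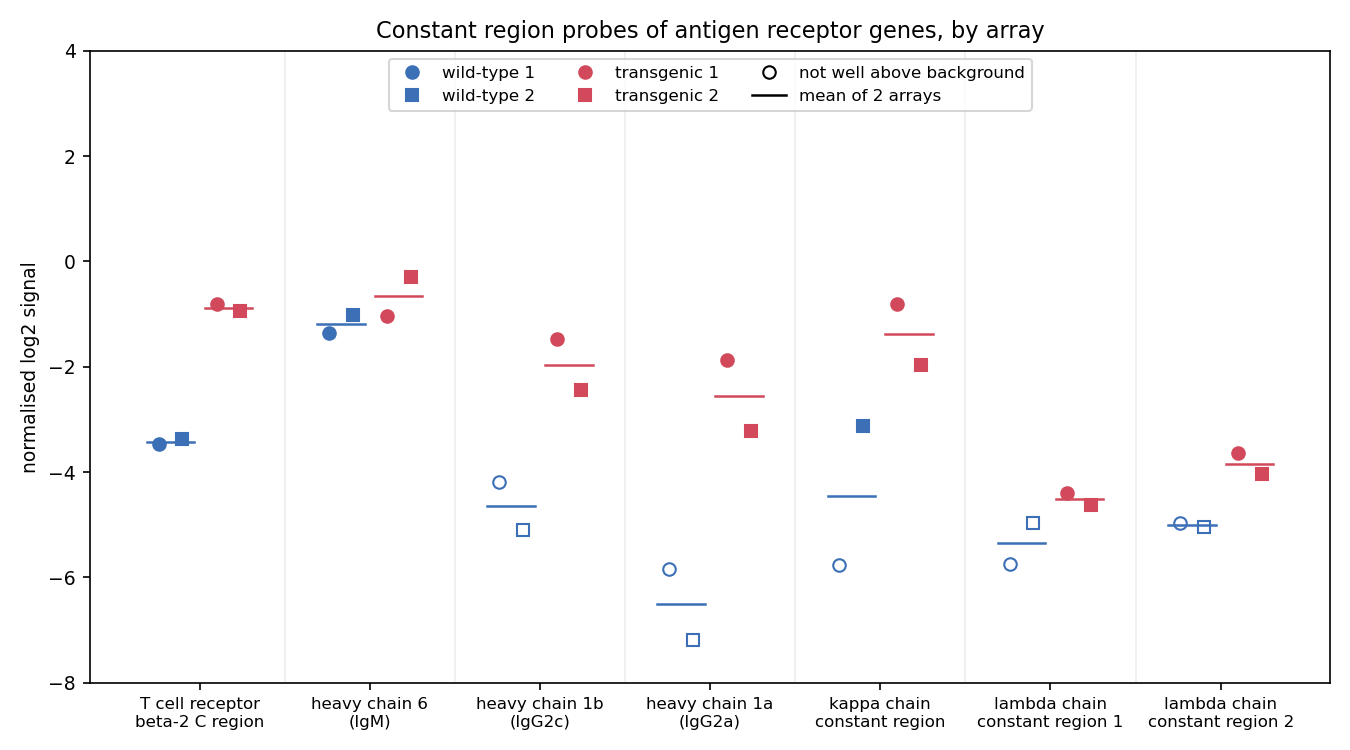
Normalised log2 signal (vertical axis) of 7 probes described by the array as constant regions of T cell receptor or immunoglobulin genes, on 2 wild-type and 2 transgenic arrays; open symbols are not well above background and bars are means of 2 arrays. The T cell receptor beta-2 probe lies at -3.46 and -3.38 on the wild-type arrays and -0.81 and -0.94 on the transgenic arrays, and the IgM probe overlaps between the groups.

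The chains that these complexes carry were followed through probes that the array describes as constant regions of antigen receptor genes, a set picked by description after values of these data had been seen. The Igh-VJ558 probes, described above, were left out of this set. It held 16 probes, 8 of them well above background on no array, both IgG1 probes among these, and 7 tested. The probe of the T cell receptor beta-2 chain, at chr6:41497058-41497622 (mm9), was the 1 called in this set, apart from the Igh-VJ558 calls above. It measured -3.46 and -3.38 on the wild-type arrays and -0.81 and -0.94 on the transgenic arrays, all well above background, with a difference of 2.54 ± 0.19 (log2, SE; adjusted p = 0.0193). The IgM probe measured -1.35 and -1.01 against -1.03 and -0.30 (0.51 ± 0.28; adjusted p = 0.378), and its groups overlapped. The IgG2c probe measured -4.19 and -5.09 against -1.48 and -2.44, at least 4.95-fold higher (2.67 ± 0.46; adjusted p = 0.0671). The kappa chain probe, well above background on 1 wild-type array, measured -5.76 and -3.13 against -0.81 and -1.96 (3.06 ± 0.90; adjusted p = 0.167). The lambda constant regions 1 and 2 differed by 0.85 ± 0.42 and 1.17 ± 0.33 (adjusted p = 0.339 and 0.156), near the background limit. The groups overlapped for IgM and not for the others described, where 24.5% of all features lay higher without overlap, and of those others the beta-2 probe was the 1 above background on both wild-type arrays.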

How the data were processed

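RNA from sorted progenitors was Cy3-labelled for Agilent mouse arrays, per the labels. The authors' scanner files (Agilent Feature Extraction 10.7.3.1, array design 028005, mm9 coordinates, per the file headers) give a processed intensity per spot, background-subtracted and detrended, with surrogates for spots not above background, and raw intensities, used for normexp. The authors' deposited series table holds log2 values of unstated making. Its columns had a correlation of 0.9998 or more with the 75th percentile-shifted log2 signal centred on each probe's median, and its column medians were 0.193, -0.0209, -0.0454 and 0.0191. It served as an alternative.

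Control and outlier spots were left out, spots of a probe averaged, and each array's 75th percentile over non-control spots subtracted. RefSeq accessions (GRCm38.p6 table, names only) named 26582 probes, 2892 by another symbol than the design's, and 29099 kept the design's name. A gene entered by its brightest probe, tested if well above background on both arrays of a group, which left 24518 features. limma 3.58.1 in R 4.3.3 (lmFit, eBayes with an intensity trend, 2-sided, Benjamini-Hochberg over all features) gave each difference with its SE, and the fit was tested on simulated data. With 2 arrays a group an exact permutation test cannot go below 0.333, so none is given, and the number of arrays limits the precision. All arrays shared 1 slide.

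The 9 genes and the lists were chosen with earlier results of these data known. Named are all 9 and their probes, up to 4 tested genes a list with the smallest p, genes that check sort and genotype, and the 3 nearest profiles a gene; a few genes that this rule selects are not reported here. Genes outside this rule (Ltbr, Cd247, Cd8b1, Pax5, Fcgr1, Cd163, Lta, Thy1, Pdgfrb, Lum and the constant region probes) were picked after their values were seen. Same-numbered samples of the groups did not deviate together (r = 0.0032 over features, 2 pairs), and the numbers were not taken as pairs. Alternatives covered normalisation, background correction, the deposited table, the filter, probes of a gene, the variance trend, outlier spots, the replicate number and each array left out.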

Additional observations from a re-analysis of the deposited data

How the results depend on the processing

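Main settings called 423 features and 4 of the 9 genes. The 9 genes' count was 2 with normexp correction and a 75th percentile shift, 2 of 5 tested with a filter for all 4 arrays, and 0 with no intensity trend, where 0 features passed in limma (4124 at an unadjusted p under 0.05, lowest adjusted p 0.05). With no filter 695 features were called. Leaving out 1 array gave 90 to 3998 features (1289 without wild-type array 1, 3998 without wild-type array 2, 90 without transgenic array 1, 114 without transgenic array 2) and 0 to 7 of the 9 genes; the spread then comes from the intact pair alone, and the lone array is assumed to vary like it. Cd79a changed sign with the mean over probes (-0.46) and without wild-type array 1 (-0.03), in a range of -0.03 to 0.75 with 1 array left out. The cause was not tested.

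With the replicate number as a replicate block, 774 features and 7 of the 9 genes were called (Cd3g, Cd2 and Cd79b added). The labels do not say whether the numbers mark pairs, and the main fit did not take them as such. Higher calls made up 56.0% of calls, 64.3% with quantile normalisation, 65.2% with normexp and quantile normalisation, and 46.8% with the filter for all 4 arrays. Cd3g was also called with the deposited table (adjusted p = 0.0494) and with the percentile over probe means (0.0481), the latter chosen after seeing the data. Over all alternatives for the 9 genes, 122 values kept direction and side of the threshold, 11 passed it, 14 lost it and 2 changed sign. Over settings with all 4 arrays, the differences ranged from 0.49 to 2.58 for Cd3d, 1.09 to 1.97 for Lck, 0.88 to 1.94 for Ltb, 3.10 to 7.36 for Igh-VJ558 and -1.02 to -0.91 for Cd3e. Signal over background limits the fold of Cd3d, Cd3g, Cd79b and Igh-VJ558.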

Other observations

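Beyond the constant regions and the Igh-VJ558 probes, the array describes 108 further probes as variable, joining or other parts of T cell receptor and immunoglobulin genes. Of these, 72 were well above background on no array, 14 were tested and none was called. A second probe, for a cDNA described as IgG2a, at chr12:114525496-114525555 (mm9), measured -5.84 and -7.18 on the wild-type arrays and -1.88 and -3.22 on the transgenic arrays, at least 3.29-fold higher (log2 difference 3.96 ± 0.66, SE; adjusted p = 0.0616 in limma). It lies beside the IgG2c probe, and in both the wild-type arrays were not well above background and the transgenic ones were.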
